A study of Mus musculus with 6 samples.

Results

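The genes described here are 35 mouse genes of the lysosome, the acidic organelle that breaks down proteins, glycans and lipids: Ifi30 with a list of lysosomal proteases, glycosidases, lipid-handling proteins and membrane proteins. Ifi30 was taken because it had differed between the groups. The others were listed for their function, with earlier results of these data known. Probe sets annotated to 1 gene were found for 34 of the 35, out of 18193 genes in all. Cd63, a tetraspanin of the lysosomal membrane, had none in the annotation used here and was not analysed. For every gene the brightest probe set, by its mean over the arrays, gave the level. The 34 genes had 75 probe sets in all among the 45037 on the array that are not controls.

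The samples were 3 Sp3 knockout hearts and 3 wildtype hearts of mouse fetuses at stage E12.5, each hybridised to 1 oligonucleotide array and lettered a to c. Sp3 is a relative of Sp1 with zinc fingers that recognise GC boxes in promoters. The knockout group lacked Sp3 and the wildtype group did not, while the strain, the sex and the design of the null allele are not given in the sources used here. The labels give heart as the tissue of each sample, and the comparison asks which transcripts differ when Sp3 is missing.

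The arrays had median intensities between 22.5 and 26.7. The brightest Sp3 probe set had log2 values of 8.39, 8.34 and 8.61 in knockout a, b and c, against 9.87, 9.77 and 9.54 in wildtype. It was thus lower in every array labelled knockout. Its position relative to the deletion is not known here. The arrays went against their tissue label. The liver markers Afp, Alb and Ttr averaged 13.28, 13.25 and 12.49 on the log2 scale over the 6 arrays, and the embryonic globin Hbb-y 13.37. The heart muscle genes Actc1, Tnni1 and Myl7, the brightest of 17 cardiomyocyte markers, averaged 8.15, 7.39 and 7.20. The median level was at the 99.1th percentile of all genes for 11 liver markers and at the 30.8th for 17 cardiomyocyte markers. The median level of the cardiomyocyte markers was higher in every knockout array than in every wildtype array. Those of the liver and erythroid markers overlapped between the genotypes, and 0 genes of these lists passed the limma test. Of the cardiomyocyte markers 14 were higher in knockout, with a median log2 difference of 0.88. Of these, 5 were higher without overlap and 5 at an unadjusted p under 0.05, against 6.02% and 3.2% of all genes. Of the liver markers 10 of 11 were lower and of 10 erythroid markers 8 were lower, with medians of -0.13 and -0.21. Lower without overlap were 1 liver marker and 0 erythroid markers, against 9.04% of all genes. At an unadjusted p under 0.05, 2 liver and 0 erythroid markers were lower, where 5.51% of all genes were. The part of these lists in the lysosomal differences was not tested. The samples are therefore called by their genotype below. In such bulk RNA, fewer cells of a type and less RNA per cell cannot be told apart.

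Lysosomal enzymes are made in the endoplasmic reticulum and carried to the lysosome, many of them by mannose 6-phosphate receptors, and a proton pump keeps the lumen acidic so that they can work. Ifi30 encodes the lysosomal thiol reductase known as GILT, which reduces disulfide bonds of proteins taken up by antigen-presenting cells and is induced by interferon gamma. Many lysosomal genes carry an E-box of the CLEAR type in their promoters, which the factor TFEB binds when the organelle is under demand. Macrophages, which clear dying cells and the nuclei expelled by red cell precursors in the fetus, are rich in lysosomes.

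The promoters of 31 of the 35 genes were found among the RefSeq sequences of GRCm38.p6, as windows of 300 bases from 250 before to 50 after an annotated start. Ctsb, Ctsh, Asah1 and Npc1 had no entry. Promoters were searched on both strands for the E-box CACGTG, its longer form TCACGTGA and the GC box GGGCGG, the last as the core of the element that Sp factors bind. The longer form contains the E-box. The E-box was found in 12 of the 31 genes, 38.7%, against 10.2% of 14452 genes on the array that have an entry. TCACGTGA was in 6, 19.4%, against 1.63%. The GC box was in 23, 74.2%, against 57.3%. A match describes letters in the window and does not show that a factor binds there.

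The promoters of Ifi30, of Ctsd and Ctsz, cathepsins whose arrays also did not overlap between the groups, and of Hexa, which differed the other way, are shown for comparison, from RefSeq on GRCm38.p6, 5′ to 3′ along the gene. Capitals mark the E-box and the GC box on either strand. The Ifi30 and Ctsd promoters hold both motifs, and the Ctsz and Hexa promoters hold the GC box alone.
Ifi30 promoter, chr8:70766614-70766913, minus strand: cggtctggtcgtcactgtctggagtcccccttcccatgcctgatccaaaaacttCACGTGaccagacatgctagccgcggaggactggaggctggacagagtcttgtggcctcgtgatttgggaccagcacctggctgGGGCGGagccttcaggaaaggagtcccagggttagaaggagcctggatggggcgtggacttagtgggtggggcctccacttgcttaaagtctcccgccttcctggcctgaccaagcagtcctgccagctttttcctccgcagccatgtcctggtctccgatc
Ctsd promoter, chr7:142387778-142388077, minus strand: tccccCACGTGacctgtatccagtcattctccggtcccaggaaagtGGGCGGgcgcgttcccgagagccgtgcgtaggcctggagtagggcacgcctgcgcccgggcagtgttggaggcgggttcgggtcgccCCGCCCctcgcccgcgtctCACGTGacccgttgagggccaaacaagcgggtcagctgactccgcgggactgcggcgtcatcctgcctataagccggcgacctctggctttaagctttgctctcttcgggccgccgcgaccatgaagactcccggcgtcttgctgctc
Ctsz promoter, chr2:174438990-174439289, minus strand: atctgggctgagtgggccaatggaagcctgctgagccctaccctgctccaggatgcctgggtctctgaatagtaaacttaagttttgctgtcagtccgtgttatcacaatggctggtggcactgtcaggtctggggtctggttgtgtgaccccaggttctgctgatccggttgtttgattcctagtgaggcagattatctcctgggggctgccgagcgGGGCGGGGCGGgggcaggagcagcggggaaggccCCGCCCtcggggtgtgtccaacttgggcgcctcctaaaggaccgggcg
Hexa promoter, chr9:59539290-59539589, plus strand: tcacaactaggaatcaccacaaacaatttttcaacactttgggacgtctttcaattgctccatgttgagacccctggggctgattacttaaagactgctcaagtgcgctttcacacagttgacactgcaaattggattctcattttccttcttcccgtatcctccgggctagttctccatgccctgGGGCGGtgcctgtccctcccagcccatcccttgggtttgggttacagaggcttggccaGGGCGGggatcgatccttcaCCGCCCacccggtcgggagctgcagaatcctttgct

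An E-box of each of the 12 genes is shown with 9 bases on each side, the 1 nearest the start, because the bases that flank the core separate the CLEAR type from other E-boxes. Capitals mark the core.
Ifi30 site, chr8:70766845-70766868, minus strand: caaaaacttCACGTGaccagacat
Ctsd site, chr7:142387911-142387934, minus strand: cccgcgtctCACGTGacccgttga
Lamp1 site, chr8:13159137-13159160, plus strand: tgaccacatCACGTGcggaacgga
Lgmn site, chr12:102439127-102439150, minus strand: aatgtctgtCACGTGgtccatttt
Gla site, chrX:134601185-134601208, minus strand: gatctcggtCACGTGagcaactct
Glb1 site, chr9:114401021-114401044, plus strand: cttctgagtCACGTGgcctacaga
Naglu site, chr11:101070012-101070035, plus strand: ccttcaggtCACGTGgcccgaggt
Gaa site, chr11:119267814-119267837, plus strand: ctgtgcgatCACGTGtttgactct
Ctsl site, chr13:64370742-64370765, minus strand: gttagaagcCACGTGctgatctaa
Ctsa site, chr2:164833769-164833792, plus strand: gcagatgctCACGTGaccagagct
Cln3 site, chr7:126583343-126583366, minus strand: gggtactgtCACGTGacccccaac
Mcoln1 site, chr8:3500465-3500488, plus strand: cgccccgctCACGTGaccgcggcg

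Genes with and without an E-box are given side by side, with no test. Of the 12 genes with one, 7 had a negative log2 difference, knockout minus wildtype, with a median of -0.07, and 5 were lower without overlap. Ifi30, chosen for its difference, is among the 7 and the 5. The share of the 12 that was lower is near that of all genes at least as bright as the dimmest listed one, 57.9%. Of those genes 12.7% were lower without overlap. Of the 18 measured genes with a promoter entry and no E-box, 15 had a negative difference, with a median of -0.13, and 4 were lower without overlap.

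Ifi30 had intensities of 263.8, 284.0 and 286.9 in knockout arrays a to c, against 608.6, 683.6 and 559.2 in wildtype arrays a to c. All 3 knockout arrays lay below all 3 wildtype arrays, and the gap between the groups was wider than the range within either. On the log2 scale the mean was 8.12 ± 0.07 for knockout, against 9.26 ± 0.15 for wildtype (SD, n = 3 each), a difference of -1.15, or 0.452 of the wildtype level. This difference led to its choice, so it is a description and no p is given for it. A probe set annotated to both Ifi30 and Pik3r2, its neighbour in GRCm38.p6, cannot be assigned to either. Its log2 values were 3.35, 2.88 and 0.64 in knockout, against 3.89, 3.68 and 3.997 in wildtype.

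Over the whole list, 26 of 34 genes had a lower mean in knockout and 8 a higher one, where 52.5% of all genes were lower, and 57.9% of the 9791 genes at least as bright as the dimmest listed gene. The median log2 difference was -0.14 over the 34 genes and -0.02 over all genes, and with each array centred on its median these were -0.21 and -0.10. In 12 genes all 3 knockout arrays lay below all 3 wildtype arrays, where 9.04% of all genes did so, and 12.7% of those 9791 genes. In 2 genes all 3 lay above, where 6.02% and 5.55% did so. Ifi30 is among the 12 and was chosen for that difference, so that 11 of the other 33 remain as a description. The test was limma with a prior variance that follows the level and a Benjamini-Hochberg adjusted p under 0.05, which called 0.0275% of all genes lower and 0.022% higher, and 0.0155% of all probe sets in each direction. Ifi30 is among those lower genes, from which nothing is read because the same values chose it. Of the other 33 genes 0 passed, with a smallest limma adjusted p of 0.254, and 9 were lower and 0 higher at an unadjusted p under 0.05, where 5.51% and 3.2% of all genes were. Of those 9791 genes 819 were lower and 327 higher at that threshold. Without the trend 5 of the other 33 listed genes were lower and 0 higher at that threshold, where 3.11% and 2.82% of all genes were. Of the 9791 genes 292 were then lower and 112 higher.

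**Figure D1:**
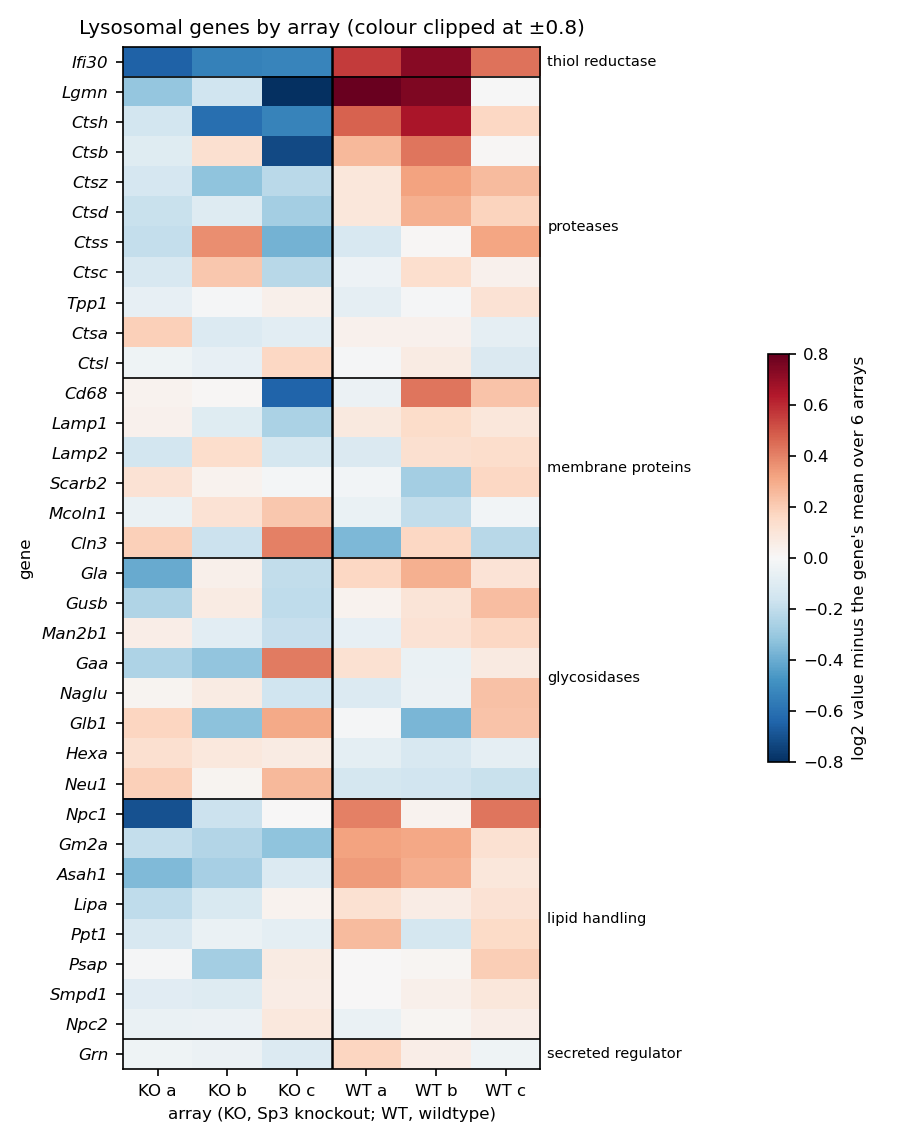
Log2 level of the 34 lysosomal genes (rows, grouped by role) in each array (columns, Sp3 knockout left of wildtype), as the difference from each gene's mean over the 6 arrays, in colour from blue (low) to red (high), clipped at 0.8. Ifi30 is low in all 3 knockout arrays and high in all 3 wildtype arrays, while Lgmn, Ctsb and Cd68 are lowest in knockout c.

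Among the 10 proteases, 8 had lower means in knockout and none passed the test. Lgmn, the asparaginyl endopeptidase that also processes other cathepsins, had log2 values of 6.96, 7.11 and 6.20 in knockout a, b and c, against 8.06, 8.01 and 7.26 in wildtype. The c array was the lowest of its group in both, and the groups did not overlap. The difference was -1.02 with a standard error of 0.27 (limma adjusted p = 0.492), and -0.74 without knockout c. Ctsh, an aminopeptidase of the cathepsin family, was at 6.56, 6.11 and 6.18 in knockout, against 7.18, 7.37 and 6.87 in wildtype. Every knockout array was again below every wildtype array, at -0.86 with a standard error of 0.20 (limma adjusted p = 0.350). The second Ctsh probe set differed by -0.38, also without overlap.

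Ctsz, a carboxypeptidase, had the smallest adjusted p after Ifi30. It was at 10.22, 10.03 and 10.14 in knockout, against 10.44, 10.67 and 10.61 in wildtype. The difference was -0.44 with a standard error of 0.10 (limma adjusted p = 0.254), small beside Lgmn but with tight arrays. All 3 Ctsz probe sets were lower without overlap, the others by -0.45 and -0.64. Ctsd, the main aspartic protease of the lysosome, was at 9.67, 9.74 and 9.57 in knockout, against 9.93, 10.13 and 10.02 in wildtype. Its groups did not overlap either, and the difference was -0.37 (limma adjusted p = 0.484).

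Ctsb, an abundant cysteine protease, had log2 values of 11.30, 11.52 and 10.67 in knockout, against 11.65, 11.82 and 11.40 in wildtype. Knockout b exceeded wildtype c, so the groups overlapped. Its difference of -0.46 (limma adjusted p = 0.732) was -0.21 without knockout c. All 5 Ctsb probe sets were lower, by between -0.60 and -0.16. Ctsl, another cysteine protease, had overlapping groups at 10.46, 10.43 and 10.66 in knockout, against 10.49, 10.56 and 10.38 in wildtype. The difference of 0.04 turned negative under some settings and had a 95% interval from -0.16 to 0.25. A second, dim Ctsl probe set differed by 1.04, and the mean over both by 0.54, outside that interval. Ctsa, the carboxypeptidase that protects Glb1 and Neu1, and Tpp1, a tripeptidyl peptidase, differed by 0.00 and -0.02. Ctsc, which activates the serine proteases of granulocytes, and Ctss, a cathepsin of antigen-presenting cells that cuts the class II invariant chain, differed by -0.09 and -0.13 and overlapped.

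**Figure D2:**
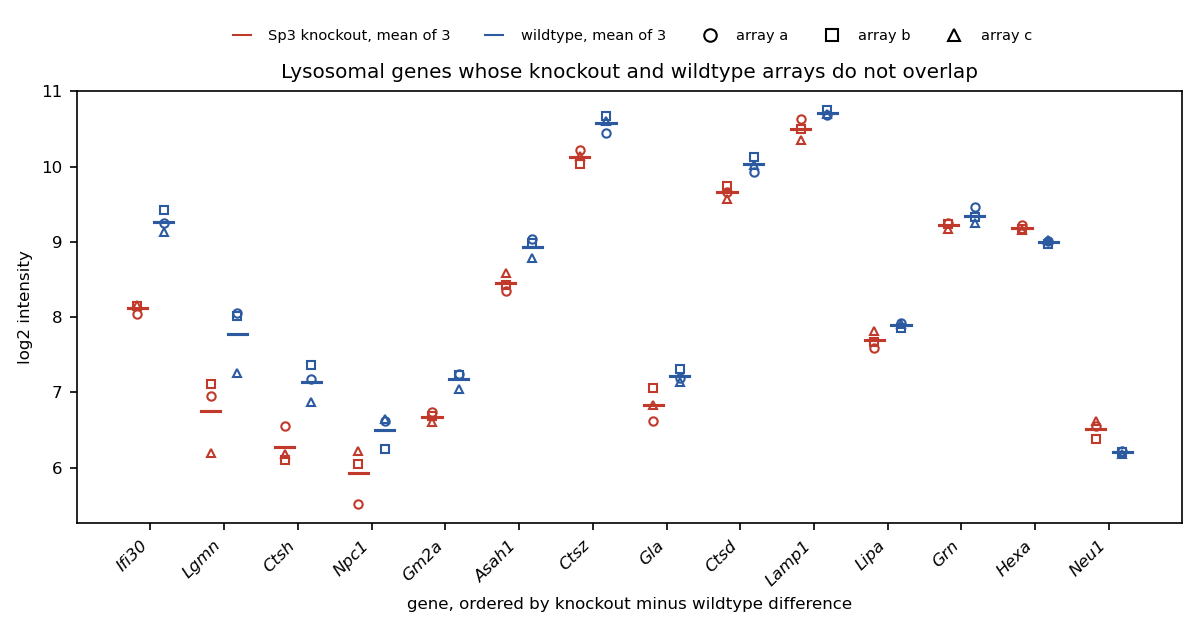
Log2 intensity of the 14 lysosomal genes whose groups did not overlap, for each Sp3 knockout array (red, left of each pair) and each wildtype array (blue, right), with marker shapes for array letters and bars for the mean of 3. Ifi30 has the largest gap, and Hexa and Neu1 at the right end are the genes that were higher in knockout.

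All 8 proteins of lipid handling had lower means in knockout, and none passed the test. The groups of 4 did not overlap, where 9.04% of all genes were lower without overlap. Of all genes at least as bright as the dimmest listed gene 12.7% were. Asah1, acid ceramidase, was at 8.34, 8.43 and 8.59 in knockout, against 9.04, 8.99 and 8.79 in wildtype. Its difference was -0.48 with a standard error of 0.12 (limma adjusted p = 0.437). Gm2a, the activator that presents the ganglioside GM2 to hexosaminidase, was at 6.74, 6.69 and 6.60 in knockout, against 7.25, 7.24 and 7.05 in wildtype. The groups of both genes were separated, and Gm2a differed by -0.50 (limma adjusted p = 0.596), with all 3 of its probe sets lower.

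Npc1, the membrane protein that exports cholesterol, was at 5.53, 6.05 and 6.23 in knockout, against 6.62, 6.25 and 6.65 in wildtype. Knockout c and wildtype b nearly met, and the difference was -0.57 (limma adjusted p = 0.665), or -0.37 without knockout a. Its soluble partner Npc2 overlapped, at 10.35, 10.35 and 10.48 in knockout, against 10.34, 10.41 and 10.45 in wildtype, a difference of -0.01 with a 95% interval from -0.20 to 0.18. Its sign turned with quantile normalization, to 0.07. Lipa, the acid lipase that frees cholesterol from its esters, was at 7.59, 7.67 and 7.82 in knockout, against 7.92, 7.85 and 7.91 in wildtype, without overlap at -0.20 (limma adjusted p = 0.763). The mean over its 3 probe sets differed by 0.02, so its direction rests on the probe set used. Psap, the precursor of the saposins, Smpd1, acid sphingomyelinase, and Ppt1, which removes palmitate from proteins, differed by -0.14, -0.09 and -0.17 and overlapped. Ppt1 was at 7.20, 7.28 and 7.25 in knockout, within the range of wildtype at 7.58, 7.19 and 7.48. Its difference was -0.09 without wildtype a and -0.29 without wildtype b.

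The 6 measured membrane proteins split evenly, 3 lower and 3 higher in knockout. Lamp1, an abundant glycoprotein of the lysosomal membrane, was at 10.63, 10.50 and 10.35 in knockout, against 10.68, 10.74 and 10.69 in wildtype. The groups did not overlap, though the gap between knockout a and wildtype a was narrow, and the difference was -0.21 (limma adjusted p = 0.683), or -0.14 without knockout c. Lamp2, its relative, differed by -0.10 and overlapped. Cd68, a Lamp relative used as a macrophage marker, was at 5.64, 5.62 and 4.97 in knockout, against 5.57, 6.04 and 5.84 in wildtype. It differed by -0.41 (limma adjusted p = 0.763), and by -0.19 without knockout c, the lowest array. Scarb2, the receptor that carries beta-glucocerebrosidase to the lysosome, Mcoln1, a calcium channel, and Cln3, a protein lost in Batten disease, differed by 0.09, 0.19 and 0.28, all with overlap. Cln3 was at 5.80, 5.44 and 6.02 in knockout, against 5.25, 5.77 and 5.39 in wildtype, and its difference lay between 0.15 without knockout c and 0.44 without knockout b.

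Of the 8 glycosidases, 5 had lower and 3 had higher means in knockout, and none passed. Gla, alpha-galactosidase A, was at 6.62, 7.06 and 6.83 in knockout, against 7.19, 7.31 and 7.14 in wildtype, without overlap at -0.38 (limma adjusted p = 0.697). Hexa, the alpha subunit of beta-hexosaminidase A, was at 9.22, 9.18 and 9.16 in knockout, against 9.01, 8.97 and 9.02 in wildtype. It had the narrowest spread of the 34 genes, with a pooled SD of 0.03, and was higher in every knockout array, by 0.18 (limma adjusted p = 0.733). Neu1, a sialidase, was the other gene higher without overlap, at 6.56, 6.39 and 6.62 in knockout, against 6.22, 6.21 and 6.18 in wildtype. Its difference was 0.32 (limma adjusted p = 0.742), and its other 2 probe sets, both dim, differed by 0.57 and -0.36. Once each array was centred on its median, 0 genes were higher without overlap, so the separation of both genes depends on the scaling.

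The remaining glycosidases overlapped between the groups. Gusb, beta-glucuronidase, differed by -0.25, Man2b1, an alpha-mannosidase, by -0.15, and Gaa, which breaks down glycogen, by -0.09. Glb1, beta-galactosidase, differed by 0.10. Naglu, which degrades heparan sulfate, was the dimmest gene of the list, at 5.20, 5.25 and 5.02 in knockout, against 5.07, 5.13 and 5.42 in wildtype, and its difference of -0.05 changed sign when knockout c or wildtype c was left out. Grn, the progranulin precursor that is cut into granulins in the lysosome, was at 9.25, 9.24 and 9.18 in knockout, against 9.46, 9.34 and 9.25 in wildtype. Knockout a and wildtype c were nearly level, and the difference was -0.13 (limma adjusted p = 0.804), or -0.07 without wildtype a.

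**Figure D3:**
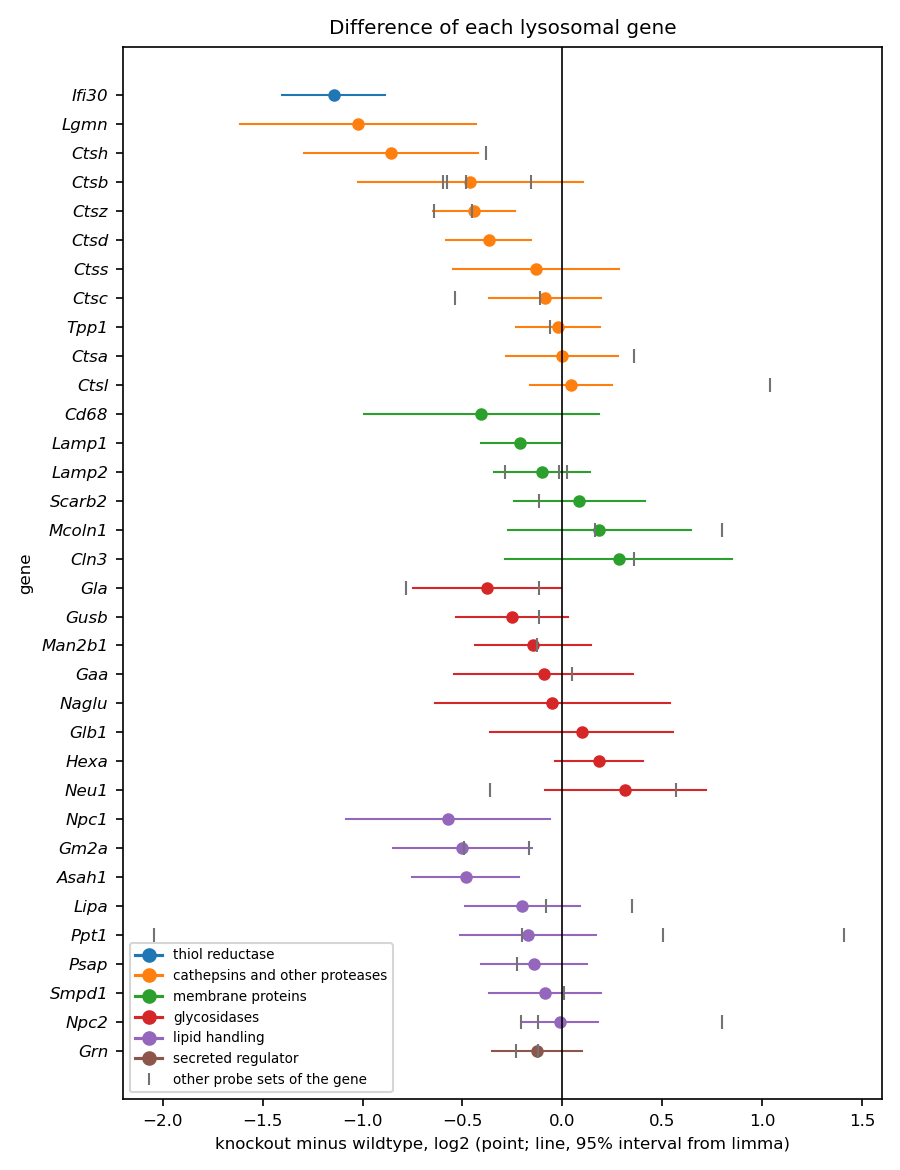
Knockout minus wildtype difference in log2 level of each of the 34 lysosomal genes (points), with the 95% interval from limma (lines) and the differences of the gene's other probe sets (grey ticks). Ifi30, Lgmn and Ctsh lie farthest to the left, all 8 lipid-handling genes lie left of 0, and the ticks of Ppt1 spread from -2.04 to 1.41.

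Of the 34 genes, 23 had more than 1 probe set. The 41 probe sets not used to represent a gene had a median log2 difference of -0.12, and 28 of them were lower in knockout. Groups did not overlap in 7 of the 41 as lower and in 3 as higher, where 6.89% and 6.15% of all probe sets did so. These probe sets read the same arrays and are no independent sample. In 11 genes all probe sets were lower, Ctsb, Ctsz and Grn among them. In 4 genes they disagreed in sign by over 0.5 on the log2 scale. From the brightest probe set to the dimmest, Lipa differed by -0.20, -0.08 and 0.35, Neu1 by 0.32, 0.57 and -0.36, and Npc2 by -0.01, -0.20, -0.12 and 0.80. The 5 Ppt1 probe sets differed by -0.17, -0.20, 0.51, 1.41 and -2.04 in that order. The representing probe sets of 5 genes, Lamp2, Gaa, Grn, Lipa and Mcoln1, carry a suffix that marks probes shared with other sequences.

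Other genes of the lysosome, from lists written for this comparison, gave no call, with a smallest limma adjusted p of 0.246. Of 26 further hydrolases, 21 were lower in knockout, with a median log2 difference of -0.30. Of these, 11 were lower without overlap and 7 at an unadjusted p under 0.05, against 9.04% and 5.51% of all genes. Acp5, the tartrate-resistant acid phosphatase of osteoclasts and macrophages, was at 9.45, 10.03 and 9.58 in knockout, against 10.16, 10.49 and 10.43 in wildtype. It did not overlap either and differed by -0.67, with that smallest adjusted p. Ctso, a cysteine cathepsin, differed by -0.54 (limma adjusted p = 0.597), and Ids, which removes sulfate from heparan and dermatan sulfate, by -0.51 (limma adjusted p = 0.634). Of 21 further membrane proteins 14 were lower and 7 did so without overlap, against the same 9.04% of all genes, with a median of -0.18. Ostm1, the partner of the chloride transporter Clcn7, differed by -0.41, Tmem192 by -0.40 and Laptm5, a protein of blood cells, by 0.26, with limma adjusted p from 0.618 to 0.746.

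Genes of the proton pump were mostly lower in knockout by small amounts, and none passed the test. Of 16 measured V-ATPase genes, 14 were lower, with a median of -0.10. Of these, 5 were lower without overlap and 4 at an unadjusted p under 0.05, against 9.04% and 5.51% of all genes. The V-ATPase genes were bright, and 12.7% of all genes at least as bright as the dimmest of the 34 were lower without overlap. Atp6v1f, a subunit of the catalytic part, was at 9.89, 9.85 and 9.95 in knockout, against 10.25, 10.24 and 10.27 in wildtype. Its arrays were tight within each group, and the difference was -0.35 (limma adjusted p = 0.400). Atp6v0e, of the membrane part, differed by -0.28 (limma adjusted p = 0.634) and Tcirg1, the membrane subunit of osteoclasts and macrophages, by -0.45 (limma adjusted p = 0.647). The list of 18 genes that sort enzymes to the lysosome had a median of -0.02, with 11 lower. The list of 20 genes of TFEB and nutrient sensing had a median of 0.00 with 10 lower. In it 2 genes were lower and 2 higher without overlap, against 9.04% and 6.02% of all genes. The 2 higher were Flcn at 0.25 and Rptor at 0.16. M6pr, a mannose 6-phosphate receptor, differed by -0.13, Vps35, of the retromer that returns receptors to the Golgi, by -0.14, and Ap3d1, of an adaptor that sorts membrane proteins, by -0.15. Lamtor4 and Lamtor3, of the complex that anchors nutrient sensing to the lysosome, differed by -0.35 and -0.20, and Tfec, a relative of TFEB, by -0.42. None passed in these 2 lists, with limma adjusted p of at least 0.662.

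Markers of macrophages were lower in knockout beside the lysosomal genes. Of 22 such markers, 18 were lower, 7 of them without overlap, and 0 passed the limma test, while 10 were lower and 1 was higher at an unadjusted p under 0.05. Without the trend in the prior variance 2 were lower and 1 was higher at that threshold. The shares over all genes at that threshold are those given above, 5.51% and 3.2% with the trend and 3.11% and 2.82% without it. Lower without overlap were 9.04% of all genes. Their summed intensity was 1837 to 2819 in knockout and 3215 to 3706 in wildtype. Csf1r, the receptor for the macrophage growth factor and the brightest of them, was at 9.27, 9.19 and 8.74 in knockout, against 9.58, 9.42 and 9.73 in wildtype. Lyz2, lysozyme, and Tyrobp, an adaptor of myeloid receptors, averaged 8.46 and 7.87 in knockout and 8.86 and 8.38 in wildtype. Tyrobp did not overlap. Lyz2 did, at 8.88, 8.87 and 7.63 in knockout, against 8.72, 9.31 and 8.56 in wildtype. The 4 markers higher in knockout were Cd163 by 2.88, Siglec1 by 1.47, Vsig4 by 0.70 and Fcer1g by 0.03. Cd163 did not overlap and was the 1 higher at an unadjusted p under 0.05 with the trend. No marker was listed at 0, and Vsig4 and Cd163, both markers of tissue macrophages, were among the dimmest of all genes. The part of macrophage content in the lysosomal differences was not tested.

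The median level of the macrophage list, as a log2 difference from the mean over the 6 arrays, was -0.04, -0.05 and -0.62 in knockout arrays a to c, against 0.29, 0.32 and 0.09 in wildtype. Knockout c was thus the array with the lowest macrophage level. Ifi30 lay at -0.65, -0.54 and -0.53 on the same scale in knockout a, b and c, a range about as wide as its pooled SD, so that their order carries no information. Among the 34 lysosomal genes knockout c was the lowest knockout array for 13, Lgmn, Ctsb and Cd68 among them, and the highest for 14, Ctsl and Npc2 among them. The median over the 34 lysosomal genes was -0.09, -0.07 and -0.11 in knockout, against 0.02, 0.06 and 0.12 in wildtype, while over all genes it was -0.01, 0.02 and 0.01 in knockout, against 0.03, -0.02 and 0.08 in wildtype. Of 9 granulocyte markers 6 were lower, and their summed intensity was 3089 to 5885 in knockout and 4327 to 7765 in wildtype.

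Interferon-stimulated genes differed widely between arrays of the same genotype. The median level of 23 such genes was -0.63, 1.16 and -1.04 in knockout arrays a to c, against 0.80, 0.93 and -0.78 in wildtype. Knockout b was the highest of the 6 arrays on that list and had an Ifi30 log2 level of 8.15, while wildtype c was among the low arrays and had an Ifi30 level of 9.13. The list had 18 of 23 genes lower, with a median difference of -0.52 and none passing. At an unadjusted p under 0.05, 3 were lower and 0 higher, where 5.51% and 3.2% of all genes were. Without the trend 0 were lower at that threshold. These 3, named after their values were seen, were Cxcl10, Gbp2 at -0.99 and Psmb9 at -1.46. Of them only Psmb9 did not overlap, and Gbp2 and Psmb9 were dimmer than the median of all genes. The part of interferon signalling in the Ifi30 difference was not tested. Cxcl10, a chemokine, differed by -1.04 (limma adjusted p = 0.658), Irf1, a transcription factor of the response, by -0.30 and Ifit2, an antiviral protein, by -0.22. Of 13 genes of class II antigen presentation, the pathway in which GILT acts, 10 were higher in knockout, with a median of 0.28 and 0 passing. At an unadjusted p under 0.05, 2 were higher, where 3.2% of all genes were. These 2, named after their values were seen, were H2-Ab1, a chain of a class II molecule, at 1.09 without overlap, and H2-DMa, which helps load peptides, at 1.44 with overlap. Its median level was 0.34, 0.23 and 0.08 in knockout, against -0.17, -0.18 and -0.06 in wildtype. Most of these genes were dim, at a median level in the 35.7th percentile of all genes. The brightest genes of the list, Ctse, an aspartic protease, Rfxap and Rfx5, both regulators of class II genes, differed by -0.23, 0.23 and -0.07.

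**Figure D4:**
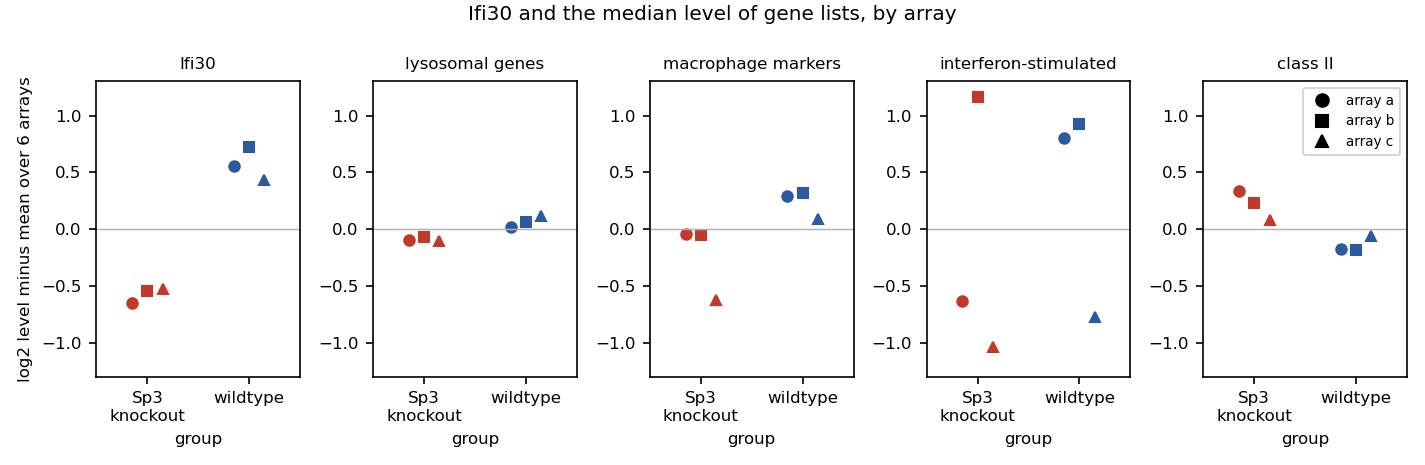
Level in each array as the log2 difference from the mean over the 6 arrays, for Ifi30 and for the median of 4 gene lists, with Sp3 knockout arrays (red) left of wildtype arrays (blue) and marker shapes for array letters. Ifi30 separates by genotype, the macrophage list is lowest in knockout c, and the interferon-stimulated list is high in knockout b and in wildtype a and b.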

How the data were processed

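Affymetrix mouse arrays of 3 Sp3 knockout and 3 wildtype samples were used. The authors deposited linear intensities. GCOS and RMA appear in the submitters' processing notes, without saying which of them made the values. Values ran from 0.0562 to 12897. They were log2-transformed with no further scaling, and 64 control probe sets were left out. Of the others, 34945 were annotated to a single gene, 932 to more than 1 and 9160 to no gene.

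The test was limma 3.58.1 in R 4.3.3 (lmFit, then eBayes with a trend over level and robust estimation) over all 45037 probe sets, with group as the only term. The test was two-sided and its threshold a Benjamini-Hochberg adjusted p under 0.05. It was also run on simulated arrays with independent errors and known changes in probe sets above the median level. Such a run does not show its accuracy on these samples. The listed genes, the other gene lists and the trend were chosen with earlier results of these data known. Named with values in each array were Ifi30, genes that passed or did not overlap, the 3 brightest and 3 dimmest genes, and genes whose probe sets disagreed. For other lists they were the 3 genes of smallest p above the median level, and for marker lists the brightest. Some further genes of these lists were named after their values were seen. Alternatives were the prior variance, scaling, an offset of 16, a level filter, array weights, the letter as a block, each array left out and the mean of probe sets. Nothing says that the samples came from separate litters. The p-values weigh a difference against the spread between these arrays, drawn toward that of other probe sets of like level. The number of arrays limits the precision. No genome build is named in the files, so coordinates are those of the RefSeq promoters alone.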

Additional observations from a re-analysis of the deposited data

How the results depend on the processing

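The Ifi30 difference, which led to its choice, stayed between -1.22 and -1.07 under all settings run. The number of lysosomal genes called lower, 1 with Ifi30 itself, was 0 without a trend in the prior variance and between 0 and 1 when an array was left out. It was 0 without knockout a and without wildtype a. It was 3 with the letter as a replicate block, Ifi30, Lgmn and Ctsb. Nothing is read from the Ifi30 call, because the same values chose that gene. Of the other 33 genes 0 were called in any setting, apart from Lgmn and Ctsb with the block. Whether the array letters pair the samples is not known here. Same-letter deviations from the group means correlated at -0.01, 0.05 and 0.08 for a, b and c. Each of b and c correlated best with its own letter, but a did not. The cause of the added calls was not tested. Over all probe sets 14 were called, against 0 without the trend, 25 with array weights, 258 with the block, and 3 to 24 when an array was left out. The number called higher among the lysosomal genes was 0 in every setting run. The median difference was -0.21 with median centring, -0.10 with quantile normalization, and between -0.19 and -0.10 when an array was left out. In the settings that kept all arrays, 12 to 14 of 34 genes were lower without overlap, apart from 9 with quantile normalization. The 14 came with median centring, where 12.3% of all genes did so. That share was 8.24% with quantile normalization, and 7.56% to 12.1% in the other settings that kept all arrays. With an array left out the number was 13 to 17, against 12.8% to 17.3% of all genes, and this count was added as an alternative after the data were seen. Of the named genes 4 changed sign, 3 of them near 0. Npc2 was at 0.068 with quantile normalization and 0.12 with the mean of probe sets, and Lipa, at -0.20 otherwise, at 0.022 with that mean. Ctsl was at -0.033 with median centring and 0.54 with the mean of probe sets, and Naglu at 0.0032 with array weights. Without 1 array Npc2 lay between -0.053 and 0.015, Ctsl between -0.029 and 0.086 and Naglu between -0.12 and 0.055. Dim probe sets have a wide spread, so their sizes are not exact.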
